A study of Mus musculus with 12 samples.

Results

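The kainate receptor subunit genes Grik1 to Grik5 and the genes of their auxiliary proteins, Neto1 and Neto2, were followed in bulk RNA of the mouse hippocampus. The 7 genes were taken by symbol from the transcript tables, whatever their values, out of 54532 genes, and they hold 38 of the 137862 transcripts listed. The study asked what the loss of Atrx, an X-linked chromatin remodeller, does to hippocampal RNA in each sex. Its 12 libraries came from Atrx-cKO females (conditional knockout, n = 3), control females (n = 3), Atrx-cKO males (n = 3) and control males (n = 3), all 3 months old. The study's title places the deletion in neurons, so glia and other cells of the hippocampus are meant to keep the gene. The promoter that drives Cre, the exons deleted and the alleles the controls carry are not given in the sources used here. Per the design text, the mice were 3 pairs of cKO and control animals of each sex, but no label says which libraries form a pair. Nothing ties each library to 1 mouse, so p-values measure the spread between libraries, which may be in part technical.

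Kainate receptors are glutamate-gated cation channels built of 4 subunits. The products of Grik1, Grik2 and Grik3 (GluK1, GluK2 and GluK3) can form channels alone, whereas those of Grik4 and Grik5 (GluK4 and GluK5) bind glutamate with high affinity but reach the surface as channels only together with a subunit of the other kind. Neto1 and Neto2 are single-pass membrane proteins that bind the receptor and slow its gating. In the hippocampus, kainate receptors are best known at the synapses of mossy fibres, the axons of dentate granule cells, on CA3 pyramidal cells, and on interneurons.

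The 5 subunits share the stretch of coding sequence that lines the pore, shown here because it holds the site that sets the calcium permeability of the channel and lets the members be compared letter by letter. Capitals mark the codon of the Q/R site, at which the RNA of Grik1 and Grik2 is known to be edited from a glutamine to an arginine codon. All sequences are from GENCODE M21 transcripts on GRCm38, 5′ to 3′ along the gene's strand.
Grik1: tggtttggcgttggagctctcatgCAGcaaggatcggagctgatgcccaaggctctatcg
Grik2: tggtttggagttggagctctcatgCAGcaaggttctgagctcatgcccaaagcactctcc
Grik3: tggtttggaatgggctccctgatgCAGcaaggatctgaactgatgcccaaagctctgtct
Grik4: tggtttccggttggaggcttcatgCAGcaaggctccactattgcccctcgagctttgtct
Grik5: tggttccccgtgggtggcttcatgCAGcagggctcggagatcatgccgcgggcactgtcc
The codon lies at chr16:87940542-87940544 on the minus strand in Grik1, at chr10:49244329-49244331 on the minus strand in Grik2 and at chr4:125691207-125691209 on the plus strand in Grik3. It lies at chr9:42547623-42547625 in Grik4 and at chr7:25022497-25022499 in Grik5, both on the minus strand. The genome has CAG there in all 5 genes. Over these 60 bases Grik1 and Grik2 shared 52 bases and all 20 codons' amino acids, Grik1 and Grik3 shared 48 bases, and Grik4 and Grik5 shared 42 bases. Read as codons, Grik4 and Grik5 encode the same amino acid at 18 of the 20 positions, against 12 to 15 between either of them and Grik1, Grik2 or Grik3. Grik3 and Grik4 were the least alike, with 36 shared bases. FPKM tables hold no base calls, so the editing of these codons was not analysed here.

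Levels are given on 2 scales of FPKM, a fragment number scaled by transcript length and library size. The first is the deposited FPKM summed over a gene's transcripts. The second, called the subtracted level, divides the bases assigned to the gene by the length its listed exons cover together, takes off the background of the library and scales the libraries to each other. The background is the median level of 1740 olfactory and vomeronasal receptor genes, which hippocampal tissue is not known to use. It was 0.327, 2.05 and 2.31 FPKM in cKO females, against 0.190, 0.0902 and 0.635 FPKM in control females. It was 0.0200, 0.300 and 0.0185 FPKM in cKO males, against 0.0290, 0.0121 and 0.00555 FPKM in control males. Library depth was 1.16 to 8.64 gigabases, with the shallowest library cKO female 2. Libraries 2 and 3 of the cKO females thus stand apart in background. Defining markers of neurons, of pyramidal, granule and interneuron classes and of glia were detected, and 0 of these markers passed the test between cKO and control in either sex.

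The Atrx check came first. Atrx had subtracted levels of 5.71, 6.16 and 6.67 FPKM in cKO females, against 11.2, 12.6 and 11.6 FPKM in control females. It had 6.72, 6.42 and 8.71 FPKM in cKO males, against 10.04, 10.3 and 10.3 FPKM in control males. The groups did not overlap in either sex. The log2 change was -0.88 (SE 0.108, limma adjusted p = 0.0196) in females and -0.47 (SE 0.108, limma adjusted p = 1) in males. These are levels of the whole gene, not of the deleted exons alone. In males the change did not pass the threshold, and in females 13 of the 28 alternative fits lost the call, among them the fit without cKO females 2 and 3 (adjusted p = 0.105), with the same direction in each.

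All 7 genes were expressed above background in all 12 libraries and passed the filter on low values. For the low genes the margin was small in some cKO females. Before subtraction, on the same length, Grik1 had at most 3.34 FPKM there and Grik3 at most 4.26 FPKM, beside backgrounds of up to 2.31 FPKM. Neto1 stood highest on the subtracted scale, with 12.1 ± 2.66 FPKM (SD over 12 libraries), followed by Neto2 with 9.40 ± 3.40 FPKM. Grik2, which encodes the principal subunit GluK2, led the receptor genes with 5.14 ± 0.546 FPKM. Grik5 followed with 4.45 ± 0.715 FPKM and Grik4 with 2.75 ± 0.514 FPKM. Grik3 had 2.38 ± 0.626 FPKM and Grik1 1.44 ± 0.234 FPKM. Within each of the 4 groups the same order of means held. Neto2 lay above Grik2, Grik5 above Grik4 and Grik3 above Grik1 in 12 of 12 libraries each. The other neighbours were not apart beyond their spread: Neto1 exceeded Neto2 in 8 of 12 libraries, Grik2 exceeded Grik5 in 9 of 12, and Grik4 exceeded Grik3 in 8 of 12. The order is that of the subtracted scale. On deposited summed FPKM Grik2 came first (14.1 FPKM), above Neto2 (12.8 FPKM) in 8 of 12 libraries, followed by Neto1 (12.7 FPKM) and Grik5 (8.43 FPKM), and Grik1 (4.81 FPKM) stood above Grik4 (3.70 FPKM) and Grik3 (2.92 FPKM).

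Of the summed subtracted level of the 5 subunits, Grik2 made up 31.9% ± 1.67 (SD, n = 12) and Grik5 27.5% ± 3.05. Grik4 made up 17.0% ± 1.93, Grik3 14.7% ± 2.93 and Grik1 8.92% ± 1.24. Differences in make-up between groups were not tested. Grik2 held 32.6% ± 1.78 in cKO females and 30.7% ± 0.257 in control females. In males it held 33.0% ± 1.82 in cKO libraries and 31.3% ± 1.91 in control libraries (SD, n = 3 each). Grik5 held 25.8% ± 1.54 in cKO females, against 28.4% ± 2.53 in control females, and 25.7% ± 4.38 in cKO males, against 30.2% ± 1.40 in control males. These shares are of RNA per length and not of protein.

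**Figure D1:**
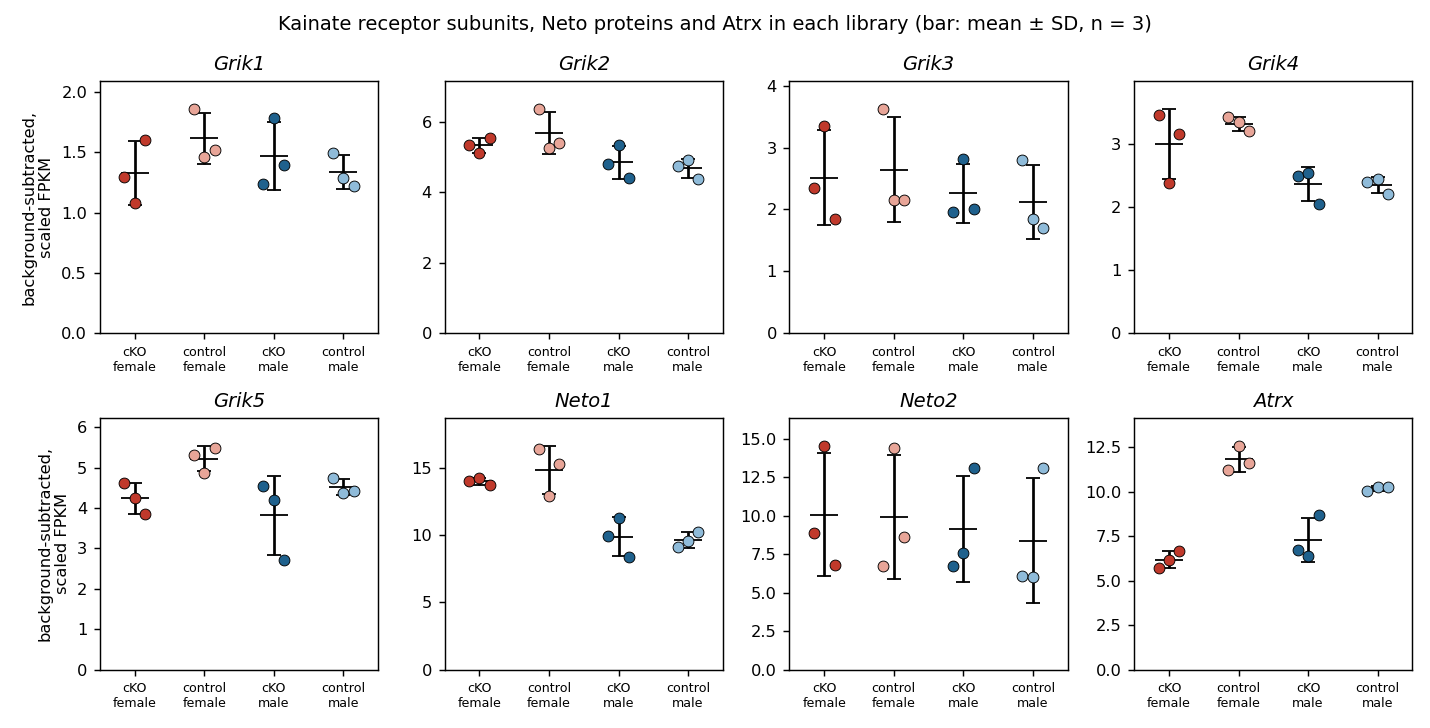
Subtracted level in FPKM of each kainate receptor gene, each Neto gene and Atrx (y axis) in the 12 libraries (points) by group (x axis), with the mean ± SD of n = 3 in black. Neto1 lies at 13.7 to 14.3 FPKM in cKO females and at 12.9 to 16.4 FPKM in control females, above the 8.36 to 11.2 FPKM of cKO males and the 9.12 to 10.3 FPKM of control males; Neto2 has 1 high library in every group.

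None of the 7 genes passed the test between cKO and control in either sex. In females 6 of the 7 log2 changes were negative and 1 positive, from -0.27 to 0.02, with limma adjusted p-values from 0.256 to 0.977. In males 2 were negative and 5 positive, from -0.24 to 0.15, with a limma adjusted p of 1 for each. The model takes the spread of each gene from all 4 groups, so the errors in males include the spread among cKO females. Over all 14989 genes tested the female comparison called 0.0734% of genes and the male comparison 0.00667%, so a count of 0 among 7 is near that background. At an unadjusted p under 0.05 it was likewise 0 of 7 in each sex, against 29.0% of all genes in females and 2.27% in males. The median log2 change of the 7 genes was -0.08 in females and 0.04 in males, beside 0.01 and 0.03 over all genes tested. In females 1 of 7 genes was lower with no overlap between the groups and 0 were higher, beside 7.59% and 9.93% of all genes, and in males 0 of 7 were, beside 4.72% and 7.35%. Without cKO females 2 and 3, with the lone cKO female assumed to vary like the other groups, the female log2 changes were -0.23 for Grik1, -0.073 for Grik2, -0.11 for Grik3, 0.048 for Grik4, -0.16 for Grik5, -0.075 for Neto1 and -0.083 for Neto2, each with a limma adjusted p of 1. The count of members passing was 0 of 7 in both sexes in all 28 alternative fits each. Over all genes, the female calls varied widely between these fits. They were 0 with median-of-ratios scaling and no subtraction, and 3378 of 14989 with array weights. They were 5661 of 14868 without cKO female 1 and 10455 of 43399 with neither subtraction nor further scaling. In males, array weights called 15 of 14989 and the fit of male libraries alone 5 of 13298. A count of 0 of 7 thus does not mean the same in each fit. In bulk RNA, fewer cells of a type and less RNA per cell cannot be told apart.

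The width of the intervals on the subtracted scale differed by gene. For Grik2 the 95% interval of the cKO over control ratio ran from 0.812 to 1.10 in females and from 0.885 to 1.20 in males. For Neto1 it ran from 0.798 to 1.13 in females and from 0.854 to 1.21 in males. Grik4, which encodes a high-affinity subunit of CA3 neurons, had 0.732 to 1.12 in females and 0.807 to 1.24 in males. The widest were those of Neto2, with 0.556 to 1.86 in females and 0.609 to 2.03 in males. A p above the threshold does not show that a gene is the same in cKO and control mice, and these intervals do not cover the choice of processing. Over the 28 alternative fits, the female log2 change ranged from -1.51 to -0.0012 for Grik2, from -2.48 to -0.13 for Grik5, from -1.07 to -0.0033 for Neto1 and from -0.70 to 0.048 for Grik4. With median-of-ratios scaling and no subtraction it was -0.83 for Grik2, -0.81 for Grik5 and -1.07 for Neto1, each with a limma adjusted p of 0.0893. The lowest values for Grik2 and Grik5 are those of the most abundant transcript taken alone (limma adjusted p = 0.167 for Grik2 and 0.124 for Grik5).

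**Figure D2:**
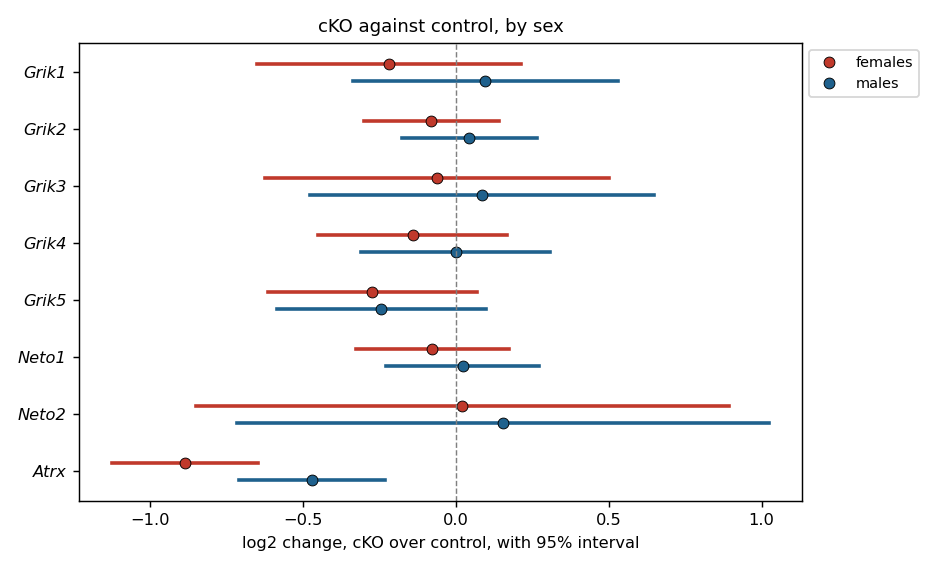
Fitted log2 change of cKO over control (x axis) with its 95% interval for each gene (rows), females above males in each row. The intervals of all 7 receptor and Neto genes include 0 in both sexes, and that of Neto2 is the widest; Atrx lies at -0.88 in females and at -0.47 in males.

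Among the principal subunits, Grik2 had subtracted levels of 5.36, 5.12 and 5.54 FPKM in cKO females, against 6.37, 5.27 and 5.41 FPKM in control females. In males it had 4.80, 5.34 and 4.41 FPKM in cKO libraries, against 4.74, 4.93 and 4.38 FPKM in control libraries. The groups overlapped in both sexes, and the log2 changes were -0.08 (SE 0.0996, limma adjusted p = 0.622) in females and 0.04 (SE 0.0996, limma adjusted p = 1) in males. Its coefficient of variation over the 12 libraries was 10.6% on the subtracted scale, the lowest of the 5 subunit genes there, and 24.1% on deposited FPKM, where those of Grik5 (21.6%) and Grik4 (22.2%) were lower.

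Grik3, whose product forms channels of low glutamate affinity, had 2.34, 3.35 and 1.84 FPKM in cKO females, against 3.62, 2.16 and 2.15 FPKM in control females. In males it had 1.97, 2.81 and 2.00 FPKM in cKO libraries, against 2.80, 1.85 and 1.70 FPKM in control libraries. In each group 1 library stood above the other two, and the groups overlapped. The log2 changes were -0.06 (SE 0.255) in females and 0.09 (SE 0.255) in males.

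Grik1 is best known from interneurons, and the sign of its female difference depended on the scale. Its deposited summed FPKM was 4.38, 7.71 and 8.94 in cKO females, against 5.42, 4.08 and 5.39 in control females. Its subtracted level was 1.29, 1.08 and 1.60 FPKM in cKO females, against 1.86, 1.46 and 1.52 FPKM in control females. The highest 2 deposited values are those of the libraries with a background of 2.05 and 2.31 FPKM, and after subtraction the first of them was the lowest of the 6 female values and the second the second highest. The female log2 change was -0.22 (SE 0.196, limma adjusted p = 0.478) after subtraction and 0.41 (limma adjusted p = 0.172) on deposited FPKM with no further scaling, so its direction is not settled. In males Grik1 had subtracted levels of 1.23, 1.78 and 1.39 FPKM in cKO libraries, against 1.49, 1.29 and 1.22 FPKM in control libraries, with a log2 change of 0.10 (SE 0.196).

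Among the high-affinity subunits, Grik5 had the largest fitted changes of the 5 subunit genes. Its subtracted level was 4.62, 4.25 and 3.86 FPKM in cKO females, against 5.31, 4.87 and 5.48 FPKM in control females. The groups did not overlap, and Grik5 was the 1 gene of the 7 with this pattern. Of all genes tested, 7.59% were lower in cKO females without overlap and 9.93% higher, so 1 of 7 is near that background. On the deposited scale they did overlap, with 8.87, 8.43 and 10.7 FPKM in cKO females, against 10.6, 9.40 and 10.7 FPKM in control females. In males Grik5 had subtracted levels of 4.55, 4.20 and 2.70 FPKM in cKO libraries, against 4.75, 4.38 and 4.43 FPKM in control libraries, and cKO male 3 alone was far below the rest. The log2 changes were -0.27 (SE 0.154, limma adjusted p = 0.256) in females and -0.24 (SE 0.154, limma adjusted p = 1) in males. Their mean was -0.26 (SE 0.109), with an unadjusted p of 0.0382 and a limma adjusted p of 0.238, in a comparison that called 0.0334% of all genes (19.9% at an unadjusted p under 0.05, against 1 of the 7). It was negative in all 27 alternative fits and passed in 0 of them.

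Grik4 had 3.45, 2.38 and 3.16 FPKM in cKO females, against 3.42, 3.33 and 3.20 FPKM in control females. In males it had 2.48, 2.54 and 2.04 FPKM in cKO libraries, against 2.40, 2.44 and 2.21 FPKM in control libraries. The lowest female value is that of cKO female 2, the shallowest library, which also had a high background of 2.05 FPKM. The log2 change was -0.14 (SE 0.140, limma adjusted p = 0.525) in females and -0.00017 (SE 0.140) in males.

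Of the auxiliary proteins, Neto1 had 14.0, 14.3 and 13.7 FPKM in cKO females, against 16.4, 12.9 and 15.3 FPKM in control females. In males it had 9.96, 11.2 and 8.36 FPKM in cKO libraries, against 9.12, 9.55 and 10.3 FPKM in control libraries. The cKO females lay within the range of their controls, and the log2 changes were -0.08 (SE 0.113) in females and 0.02 (SE 0.113) in males. The difference between the sexes is described further on.

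Neto2 had subtracted levels of 8.90, 14.6 and 6.80 FPKM in cKO females, against 6.76, 14.4 and 8.62 FPKM in control females. In males it had 6.77, 7.61 and 13.1 FPKM in cKO libraries, against 6.09, 6.002 and 13.1 FPKM in control libraries. In every group 1 library was at 13.1 FPKM or more and the other two were at 8.90 FPKM or less. The log2 changes were 0.02 (SE 0.392) in females and 0.15 (SE 0.392) in males, with the widest errors of the 7 genes.

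The cKO effect in males minus that in females was positive for 7 of 7 genes, from 0.03 to 0.31 on the log2 scale. None passed this test of the difference, with limma adjusted p-values from 0.630 to 0.960, and 0 of all genes tested passed it (0% called, 6.22% at an unadjusted p under 0.05). Among the 7 genes 0 reached an unadjusted p under 0.05. The genes share their libraries, so 7 equal signs are not 7 independent observations.

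The transcript tables also split each gene among its annotated forms. Grik3 and Neto1 are listed with 1 transcript each, Grik4 with 2, Neto2 with 5, Grik5 with 7, and Grik1 and Grik2 with 11 each. Of the 14 transcripts with a mean share of at least 10% of a gene that has more than 1, 0 passed between cKO and control by an exact two-sided permutation test within sexes, in which 400 arrangements allow a p of 0.005 at the smallest. After adjustment over 14, 1 transcript alone at that smallest p would not pass the threshold. The count of 0 therefore cannot show that no single form differed. The smallest p was 0.01 (0.14 after Benjamini-Hochberg adjustment over 14) and belonged to ENSMUST00000003468, the full coding form of Grik5.

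That Grik5 transcript held 25.6%, 0% and 1.44% of the gene's summed FPKM in cKO females, against 20.9%, 78.7% and 63.8% in control females. It held 79.2%, 76.1% and 28.2% in cKO males, against 86.6%, 90.2% and 90.0% in control males. The mean difference was -45.5 percentage points in females and -27.8 in males, and the groups overlapped in females and not in males. In 3 libraries, 1 of each group but control males, ENSMUST00000205328 held 45.3%, 57.4% and 57.7%, and it held under 1% in the other 9. That form is annotated as a target of nonsense-mediated decay. Its coding sequence holds 25 bases that the full form lacks, chr7:25067985-25068009 on the minus strand, and ends after 390 bases, against 2937 in the full form. Those 25 bases, in capitals, are shown because ENSMUST00000205328 is the 1 transcript of 7 that holds them.
Grik5 extension: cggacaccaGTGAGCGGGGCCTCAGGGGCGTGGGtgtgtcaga
In cKO females 2 and 3 another form annotated for decay, ENSMUST00000206134, held 67.6% and 45.0%, against 0.195% to 9.90% in the other 10 libraries. Those are the 2 libraries of highest background, whose part in the split was not tested. The 3 retained-intron forms of Grik5 summed to 17.3%, 29.7% and 48.9% in cKO females, against 20.01%, 20.3% and 24.3% in control females. They summed to 18.8%, 21.5% and 13.7% in cKO males, against 10.3%, 9.52% and 4.31% in control males.

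Grik1 showed a similar all-or-none split. Its longest coding form, ENSMUST00000227986, was listed at 0% in 3 of 3 cKO females, against 48.0%, 52.6% and 0% in control females. It was listed at 0%, 0% and 42.0% in cKO males, against 2.92%, 39.0% and 48.4% in control males. The permutation p over both sexes was 0.1 (0.467 adjusted), and the groups overlapped in both sexes. An exact 0 in such tables can be a failed estimate and does not show that the form was absent. The 2 exons that set this form apart from ENSMUST00000023652 follow in capitals: the first lies in the extracellular amino-terminal part (chr16:87955289-87955333, minus strand) and the second in the intracellular tail (chr16:87896809-87896895, minus strand).
Grik1 first exon: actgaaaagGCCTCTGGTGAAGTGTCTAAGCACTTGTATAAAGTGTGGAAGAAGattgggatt
Grik1 second exon: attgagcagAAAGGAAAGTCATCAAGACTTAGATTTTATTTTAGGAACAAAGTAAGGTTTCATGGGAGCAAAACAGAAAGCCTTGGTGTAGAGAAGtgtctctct
The first exon is part of 4 of the 11 transcripts and the second of 2, and ENSMUST00000227986 is the form that holds both. The 4 retained-intron forms of Grik1 summed to 49.0%, 69.3% and 77.0% in cKO females, against 28.7%, 21.3% and 45.1% in control females. They summed to 45.0%, 54.1% and 18.3% in cKO males, against 40.0%, 19.9% and 20.5% in control males. The female groups did not overlap, and the 2 highest of the 12 shares were those of cKO females 2 and 3, the libraries of highest background. Beside it, the remaining forms of Grik1 summed to 2.23, 2.37 and 2.05 FPKM in cKO females, against 3.86, 3.21 and 2.96 FPKM in control females. Over the 12 libraries the retained-intron share of Grik1 went with the log2 background (Pearson r = 0.82, permutation p = 0.00108, adjusted over 3 genes 0.00162; Spearman's rho = 0.88, permutation p = 0.00024, adjusted 0.00057). That of Grik5 did too (r = 0.86, permutation p = 6e-05, adjusted 0.00018, and rho = 0.90, permutation p = 0.00038, adjusted 0.00057), whereas that of Grik2 gave r = 0.33 (permutation p = 0.331, adjusted 0.331) and rho = 0.03 (permutation p = 0.922, adjusted 0.922). Without the 2 libraries farthest from the median background, cKO female 3 and control male 3, r was 0.73 for Grik1, 0.87 for Grik5 and 0.36 for Grik2 over 10 libraries. The permutation exchanged all 12 libraries without regard to sex or genotype, so its p-values do not measure a relation within groups. The shares are of deposited FPKM, from which no background was taken off. Background is also higher in cKO females than in the other groups on average, so background and group are not separated by this relation.

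Grik2 was split in the same way, in part among forms that encode the same protein. ENSMUST00000218823 and ENSMUST00000105484 have the same 2724 coding bases. The second held 48.5% of Grik2 in cKO female 1, 39.0% in cKO male 2 and 39.8% in control male 1, and at most 0.404% in the other 9 libraries. ENSMUST00000218598 held 44.3% in cKO female 3 and at most 6.66% elsewhere, and ENSMUST00000079751 held 34.6% in control female 3 and at most 1.90% elsewhere. The gene's own subtracted level stayed between 4.38 and 6.37 FPKM throughout. In all, 5 transcripts of Grik1, Grik2 and Grik5 were under 1% of their gene in 1 library and over 30% in another of the same group, in 10 cases of a transcript within a group. A difference in share between groups of 3 stands beside this spread within groups. Below the 10% mean share, and picked after its values were seen and so not tested, ENSMUST00000219509, a form with 925 coding bases, held 0%, 1.79% and 0% of Grik2 in cKO females, against 21.8%, 17.2% and 9.57% in control females. It held at most 0.785% in the 6 male libraries.

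**Figure D3:**
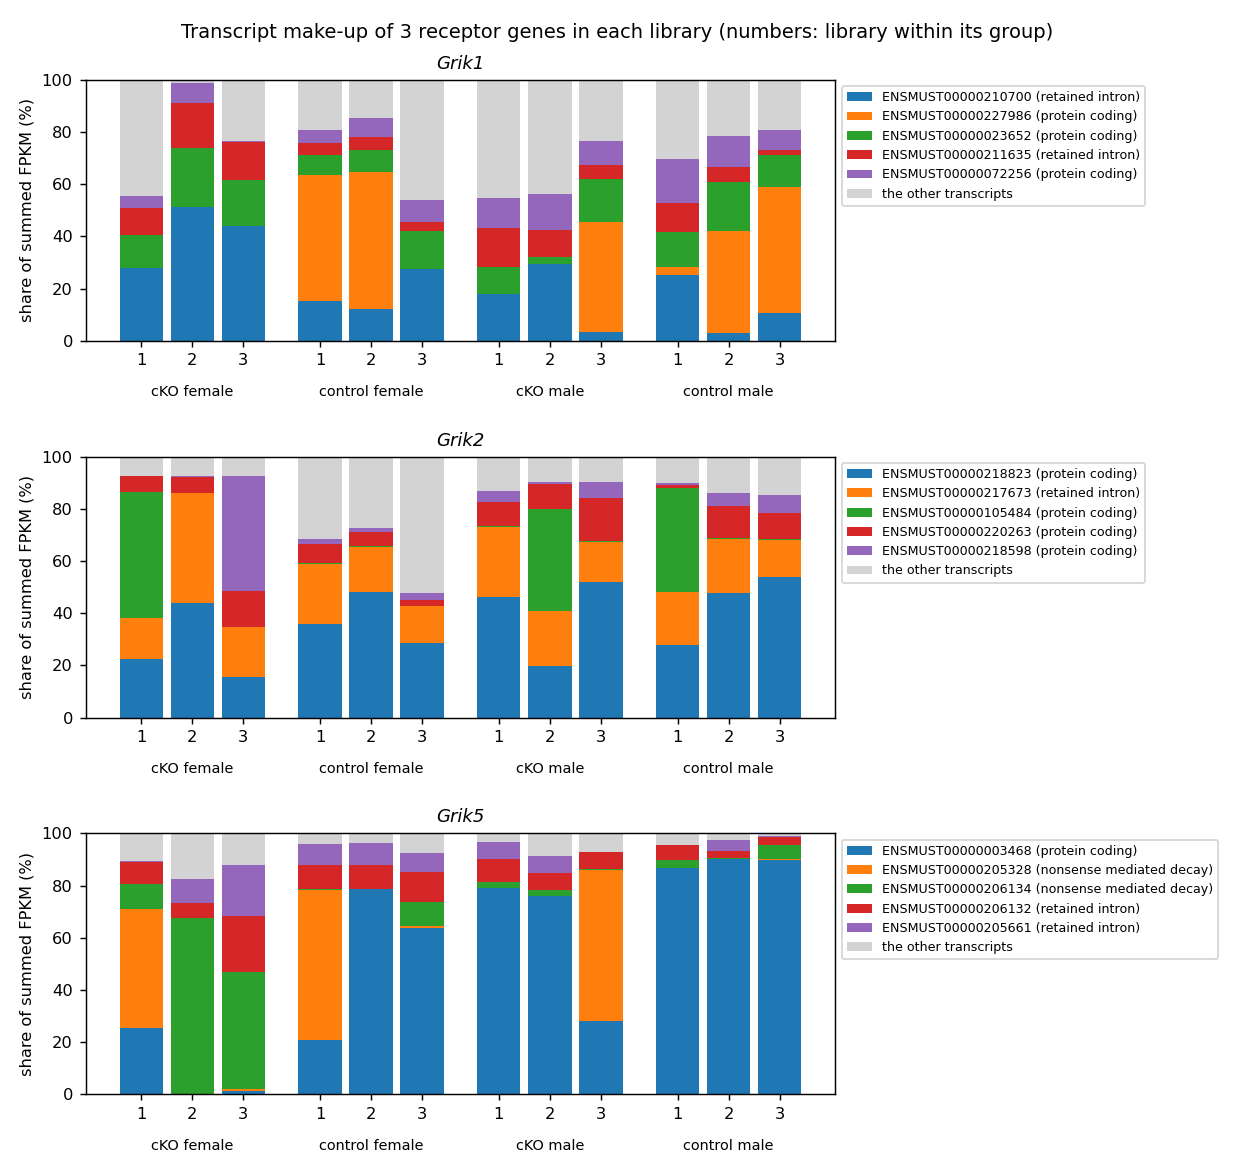
Share of the summed deposited FPKM (y axis, percent) of the 5 most abundant transcripts of Grik1, Grik2 and Grik5 in each of the 12 libraries (bars, by group), with all other transcripts in grey. Single forms take up to 57.7% of Grik5 (ENSMUST00000205328) or 48.5% of Grik2 (ENSMUST00000105484) in 1 library and almost nothing in the next library of the same group.

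The 2 coding forms of Grik4 share the same 2868 coding bases. The longer, ENSMUST00000114865, held 70.0%, 92.4% and 97.4% in cKO females, against 92.9%, 98.5% and 45.6% in control females. It held 80.8%, 83.1% and 80.3% in cKO males, against 87.9%, 56.3% and 44.6% in control males. The p over both sexes was 0.295 (0.576 adjusted, exact permutation test).

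In each of the 4 high Neto2 libraries 1 transcript held most of the gene's FPKM. ENSMUST00000209479 had 4.28, 9.07 and 3.14 FPKM as deposited in cKO females, against 4.56, 15.6 and 5.16 FPKM in control females. It had 4.24, 3.92 and 13.7 FPKM in cKO males, against 3.08, 2.48 and 2.27 FPKM in control males. In control male 3, the remaining high library, ENSMUST00000109686 had 11.8 FPKM, against 2.13 to 5.16 FPKM in the other 11 libraries. With each library's own leading transcript left out, the rest of Neto2 summed to 3.98 to 5.91 FPKM in the 4 high libraries and to 4.85 to 8.09 FPKM in the other 8, a description only, since the transcript left out is the one that made the library high. The coding sequences of the 2 forms start in different first exons, both printed in capitals from the start codon on. That of ENSMUST00000209479 lies at chr8:85700641-85700674 and that of ENSMUST00000109686 at chr8:85690835-85690973, both on the minus strand.
ENSMUST00000209479: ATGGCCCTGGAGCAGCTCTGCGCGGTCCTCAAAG
ENSMUST00000109686: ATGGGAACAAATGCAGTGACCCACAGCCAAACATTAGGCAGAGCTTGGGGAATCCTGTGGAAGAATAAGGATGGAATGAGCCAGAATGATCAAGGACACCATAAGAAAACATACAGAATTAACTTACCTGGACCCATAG
The third coding form, ENSMUST00000216286, starts like ENSMUST00000209479 and carries 21 more bases at the edge of a later exon (chr8:85663387-85663407, minus strand, capitals).
ENSMUST00000216286: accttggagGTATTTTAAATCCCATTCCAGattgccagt
It held 9.08% to 26.4% of Neto2 in the 12 libraries. Averaged over both sexes, no Neto2 form passed between cKO and control, with p-values of 0.37, 0.515 and 1 (exact permutation test), but the sexes differed in sign. The share of ENSMUST00000209479 was 43.7%, 34.8% and 77.5% in cKO males, against 33.7%, 30.3% and 13.4% in control males, without overlap. The cKO minus control difference was 26.2 percentage points in males (exact permutation p = 0.1, the smallest that 3 against 3 allow) and -10.5 points in females (exact permutation p = 0.5). For ENSMUST00000109686 it was -22.4 points in males (exact permutation p = 0.1) and 4.78 points in females (exact permutation p = 0.5). The difference between the sexes was not tested.

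**Figure D4:**
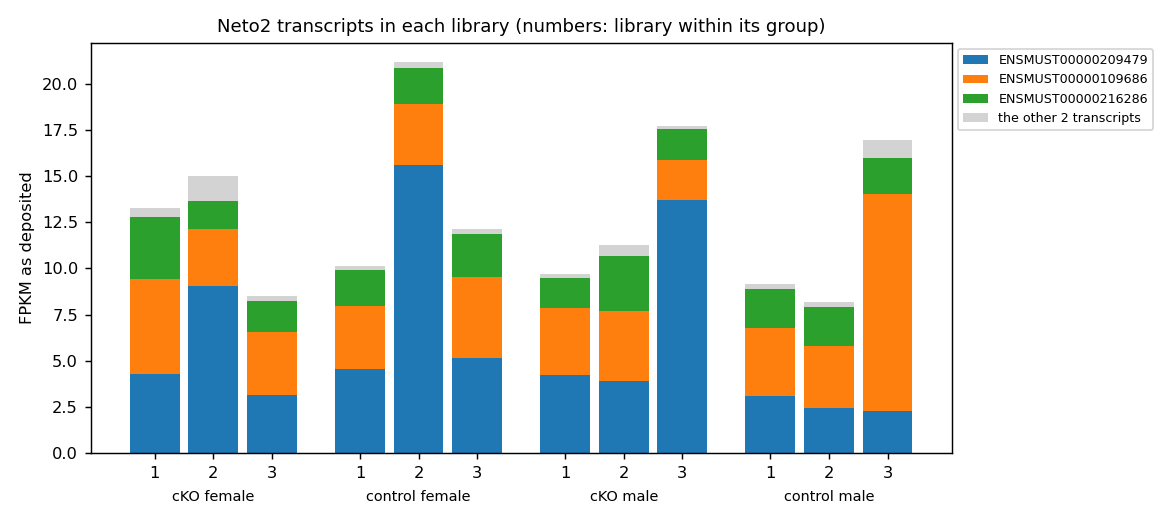
Deposited FPKM (y axis) of the Neto2 transcripts, stacked, in each of the 12 libraries (bars, by group). The tall bars of cKO female 2, control female 2 and cKO male 3 come from ENSMUST00000209479 (9.07, 15.6 and 13.7 FPKM) and that of control male 3 from ENSMUST00000109686 (11.8 FPKM).

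Between the sexes, Neto1 was the member that passed the test. It averaged 9.64 ± 0.577 FPKM in control males and 14.8 ± 1.78 FPKM in control females (SD, n = 3 each), a log2 change of -0.59 (SE 0.113, limma adjusted p = 0.00993). In cKO mice it averaged 9.86 ± 1.45 FPKM in males and 14.0 ± 0.275 FPKM in females, a log2 change of -0.49 (SE 0.113, limma adjusted p = 0.0110). The male and female libraries did not overlap in either genotype. The sex comparison called 11.9% of all genes in controls (5.26% lower in males) and 37.9% in cKO mice (21.1% lower in males), so 1 of 7 members called is near the first and below the second. At an unadjusted p under 0.05 it was 3 of 7 in controls, beside 26.6% of all genes, and 1 of 7 in cKO mice, beside 49.7%.

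The Neto1 difference depended on how the levels were computed. On deposited FPKM it had 10.4, 9.97 and 11.2 in control males, against 18.8, 14.96 and 16.2 in control females, again without overlap. In cKO mice it had 11.2, 12.2 and 8.83 FPKM in males, against 15.6, 11.5 and 11.1 FPKM in females, and the groups overlapped. With median-of-ratios scaling and no subtraction, the log2 change was 0.00 in controls (limma adjusted p = 0.998) and 0.85 in cKO mice (limma adjusted p = 0.0316), the opposite direction to that above. On deposited values with no further scaling the change in controls was of similar size but not called (log2 change -0.63, limma adjusted p = 0.0863), and that in cKO mice was -0.23 (limma adjusted p = 0.229). With subtraction on summed FPKM it was -0.53 in controls (limma adjusted p = 0.0502) and -0.20 in cKO mice (limma adjusted p = 0.267). With median-of-ratios scaling and no subtraction, Grik2 (0.80), Grik3 (0.54), Grik5 (0.62) and Neto2 (1.14) were also called higher in cKO males than in cKO females, with limma adjusted p-values of 0.0270, 0.0484, 0.0452 and 0.0385. That setting called 26893 of all 40211 genes tested between cKO males and cKO females. The call in cKO mice was lost without cKO females 2 and 3 (log2 change -0.50, limma adjusted p = 0.145). The lowest background in females, 0.0902 FPKM, lies above those of all males but cKO male 2, and its part in the Neto1 difference was not tested. With all GENCODE M21 exons as the gene's length, the call was lost in cKO mice too (log2 change -0.13, limma adjusted p = 0.505).

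The other 6 genes did not pass in controls, though all 7 had a negative log2 change there, from -0.59 to -0.19, with a median of -0.25 beside -0.06 over all genes tested. Grik4 had 2.35 ± 0.125 FPKM in control males and 3.32 ± 0.110 FPKM in control females (log2 change -0.42, SE 0.140, limma adjusted p = 0.0789). Grik2 had 4.68 ± 0.279 FPKM in control males and 5.68 ± 0.599 FPKM in control females (log2 change -0.25, SE 0.0996, limma adjusted p = 0.134). In controls 4 of the 7 genes (Grik2, Grik4, Grik5 and Neto1) were lower in males with no overlap, as were 27.1% of all genes. In cKO mice 1 of 7 was, beside 22.5% of all genes. None was higher in males with no overlap, against 21.1% of all genes in controls and 19.2% in cKO mice.

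Markers of some cell types moved with sex as well, whereas the sums of others overlapped between the sexes. The 4 neuron markers summed to 276 to 310 FPKM (subtracted) in cKO males and to 389 to 431 FPKM in cKO females, and to 308 to 323 FPKM in control males and 374 to 418 FPKM in control females. On deposited FPKM they summed to 883 to 932 in cKO males and 718 to 1191 in cKO females, which overlap, and to 902 to 1058 in control males and 1148 to 1212 in control females. In controls 1 of the 4 passed the test and was lower in males: Syt1, the calcium sensor of transmitter release (log2 change -0.67, limma adjusted p = 0.00787). In cKO mice 3 of the 4 passed and were lower in males. The 4 astrocyte markers summed to 333 to 373 FPKM in cKO males and 242 to 288 FPKM in cKO females, and to 381 to 440 FPKM in control males and 273 to 313 FPKM in control females. The 3 oligodendrocyte markers summed to 223 to 386 FPKM in cKO males and 148 to 201 FPKM in cKO females, and to 299 to 379 FPKM in control males and 161 to 217 FPKM in control females. Higher in males by the test were 2 of 4 astrocyte markers in each genotype, and 2 of 3 oligodendrocyte markers in cKO mice and 1 of 3 in controls. Over all genes the test called 11.9% in controls and 37.9% in cKO mice. The 6 CA3 and CA2 markers summed to 226 to 288 FPKM in cKO males and 333 to 449 FPKM in cKO females. In controls they summed to 212 to 235 FPKM in males and 331 to 430 FPKM in females. On deposited FPKM they overlapped in cKO mice, with 284 to 345 in males and 259 to 550 in females. By the test 2 of the 6 were lower in males and 0 higher, in each genotype. The dentate granule sums overlapped, with 53.4 to 63.5 FPKM (subtracted) in cKO males and 52.6 to 76.0 FPKM in cKO females. In controls they were 54.7 to 65.4 FPKM in males and 61.6 to 75.7 FPKM in females. The CA1 sums overlapped too, with 12.7 to 20.1 FPKM in cKO males and 16.6 to 23.7 FPKM in cKO females. In controls they were 13.6 to 24.2 FPKM in males and 22.5 to 36.2 FPKM in females. Of 8 interneuron markers, 2 were lower in males in controls. In cKO mice 4 were lower and 1 higher. Their sums overlapped in controls, with 136 to 182 FPKM (subtracted) in males and 180 to 218 FPKM in females. In cKO mice they were 129 to 175 FPKM in males and 195 to 387 FPKM in females. The 3 choroid plexus markers summed to 10.5 to 4962 FPKM in control females and 24.4 to 38.9 FPKM in cKO females. In males they summed to 1200 to 3515 FPKM in controls and 40.4 to 2236 FPKM in cKO libraries. No marker in these lists was at 0 in all libraries, and their part in the Neto1 difference was not tested.

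**Figure D5:**
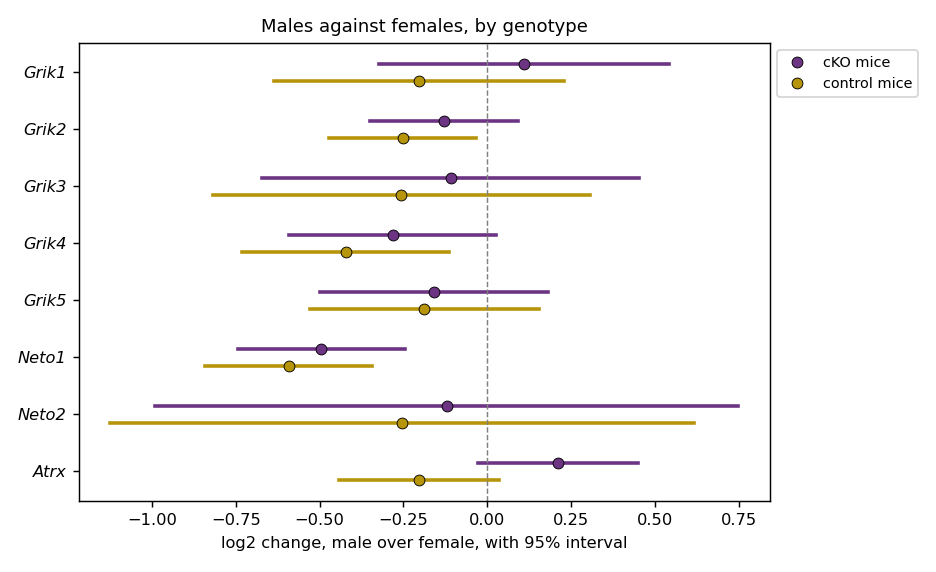
Fitted log2 change of males over females (x axis) with its 95% interval for each gene (rows), cKO mice above control mice in each row, on the subtracted scale. Neto1 lies at -0.49 in cKO mice and at -0.59 in control mice, and its intervals exclude 0; of the other members, those of Grik2 and Grik4 exclude 0 in controls before adjustment.

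Proteins that bind, carry or modify kainate receptors were counted in the same fits, from a list of 26 genes of which 24 passed the filter on low values. In females, in males and in the mean of both sexes 0 of 24 passed the test, and their median log2 changes were -0.09, -0.02 and -0.04. Over all genes tested these comparisons called 0.0734%, 0.00667% and 0.0334%, so 0 of 24 is near that background, as is 0 in each group below. Among the groups described here, 0 of 10 anchoring and adaptor proteins, 0 of 2 secreted mossy fibre organisers, 0 of 2 ubiquitin ligase components, 0 of 2 transport and actin proteins, 0 of 3 RNA editing enzymes and 0 of 3 kinases passed. The smallest adjusted p for the mean of both sexes was that of Dlg4, the scaffold PSD-95. Dlg4 had 13.2 ± 2.4 FPKM in cKO females against 16.4 ± 0.81 FPKM in control females, and 15.5 ± 1.1 FPKM in cKO males against 17.3 ± 1.8 FPKM in control males (mean log2 change -0.23, SE 0.0872, limma adjusted p = 0.228).

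C1ql2 and C1ql3 are secreted by mossy fibres and recruit kainate receptors to their synapses. C1ql2 had 6.38 ± 1.6 FPKM in cKO females against 9.39 ± 2.3 FPKM in control females, and 4.60 ± 0.98 FPKM in cKO males against 5.33 ± 1.6 FPKM in control males (mean log2 change -0.35, SE 0.180, limma adjusted p = 0.288). C1ql3 had a mean log2 change of -0.16 (SE 0.0966, limma adjusted p = 0.349). Kif17, a kinesin that carries glutamate receptors along dendrites, had a mean log2 change of -0.35 (SE 0.216, limma adjusted p = 0.359). Camk2a, a kinase of excitatory synapses, had -0.31 (SE 0.136, limma adjusted p = 0.245), and the editing enzyme gene Adar had -0.06 (SE 0.0976, limma adjusted p = 0.736). Adarb2, a brain member of the editing enzyme family with no known editing activity of its own, had -0.22 (SE 0.200, limma adjusted p = 0.527).

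Across the 12 libraries, each member's log2 level was set against 11309 named genes, and the 2 nearest are given as a description over libraries that share depth, background and sex. Neto1 was most like Megf9 and Braf (Pearson r of 0.97 each) and Grik4 most like Syngr3 (0.97), a synaptic vesicle protein, and Dock9 (0.96). Grik5 was most like Map1a (0.93) and Rassf5 (0.91), Grik2 like Pgam1-ps2 (0.93) and Med24 (0.92), and Grik3 like Fam98b (0.91) and Eml1 (0.90). Grik1 was most like Ldha (0.84) and Faim2 (0.83), and Neto2 like Gjb2 (0.83) and Abcf1 (0.77), the lowest values of the 7.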

How the data were processed

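Total hippocampal RNA was isolated with the miRVANA kit and sequenced from rRNA-depleted ScriptSeq Complete Gold libraries, per the labels. The authors deposited 1 StringTie transcript table per library with FPKM and coverage for 137862 transcripts. HISAT2 2.0.4 and GRCm38.p6 are named in the submitters' processing notes. The annotation release, trimming and strand setting are not given in the sources used here, so antisense reads may be counted with a gene. FPKM is scaled by the mapped bases of each library, and the deposited coverage over FPKM gave 1.16 to 8.64 gigabases, which limits precision most in cKO female 2. Read counts were not among the values used, so no count intervals are given.

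From the deposited coverage, the bases of each gene were summed and divided by the union of the exons of its listed transcripts (GENCODE M21, 136341 of 137862 transcripts of equal exon length). The median of 1740 receptor genes was subtracted, values below 0 were set to 0, and libraries were scaled by median-of-ratios over protein-coding genes of mean at least 5. The 14989 genes that averaged 1 FPKM or more and reached 1 FPKM in 3 or more libraries were tested with limma 3.58.1 in R 4.3.3 (trend, robust) on log2(value + 0.5), in 1 model of 4 groups, with Benjamini-Hochberg adjustment over all genes and a threshold of 0.05. Fold changes are on that log2(value + 0.5) scale, which understates the change of low genes. The fit was also run on simulated data. The changes planted there were larger than those of the main fit for the members, and no library background was added. The simulation thus does not show how the fit does for changes of the members' size. Only exons of listed transcripts were used, because the annotation release behind them is not known. GENCODE M21 gives Neto1 exons that the listed transcripts do not hold. The other choice is an alternative added after seeing the data, and with it the Neto1 sex call in cKO mice was lost. That call thus depends on this choice of length. The members, lists and tests were chosen with earlier results of these data known. The text names every member, and of each related list at most 2 genes, those of smallest p in the mean of both sexes, with Syt1, a neuron marker, added after its values were seen. Klhl17 was not found by that symbol, Senp1 did not pass the filter, and 1 listed gene is not reported here. Alternatives covered subtraction, scaling, pseudocount, filter, variance model, voom on reads estimated from coverage, transcripts and left-out libraries.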

Additional observations from a re-analysis of the deposited data

How the results depend on the processing

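The count of members passing between cKO and control was 0 in females, in males, in their mean and in their difference under every alternative run, and the count of transcript shares passing was 0 under each of its own. In the main setting of the share test, 1 transcript alone could not have passed. Over all genes, array weights called 3288 of 14989 in the mean of both sexes and 1693 of 14989 in the difference. Single changes of the members did turn direction, and the cause was not tested. None of the turned changes passed between cKO and control or between control males and females. Between cKO males and females, the turned changes that passed were Grik2, Grik3, Grik5, Neto1 and Neto2 without subtraction and with median-of-ratios scaling, Grik2 (0.83) and Grik5 (0.67) with voom, Grik5 (2.25) with the most abundant transcript and Grik1 (-0.75) without subtraction or further scaling. Without subtraction and with median-of-ratios scaling, the male cKO changes were -0.050 for Grik1, -0.13 for Grik2, -0.097 for Grik3, -0.22 for Neto1 and -0.043 for Neto2, and the female change of Neto2 was -0.89. Between control males and females the same setting gave 0.081 for Grik1, 0.097 for Grik2, 0.15 for Grik3, 0.13 for Grik4, 0.15 for Grik5, 0.0014 for Neto1 and 0.30 for Neto2, and between cKO males and females 0.85 for Neto1. Without any further scaling, the female cKO changes were 0.41 for Grik1, 0.13 for Grik3 and -0.20 for Neto2. With voom, the male cKO changes were -0.022 for Grik1, -0.15 for Grik2, -0.062 for Grik3, -0.19 for Neto1 and -0.050 for Neto2, the female change of Neto2 was -0.81, the control sex changes were 0.051 for Grik1, 0.20 for Grik2, 0.083 for Grik3, 0.27 for Grik5 and 0.24 for Neto2, and that of Neto1 in cKO mice was 0.72 (limma adjusted p = 0.0589). Subtraction on summed FPKM gave 0.38 for Grik1 and -0.16 for Neto2 in females and -0.0066 for Neto1 in males. The most abundant transcript gave -0.094 for Grik2 and 0.22 for Grik4 in males, -0.95 for Neto2 in females and 0.43 for Grik5 between control males and females. Array weights gave -0.0067 for Grik1 and 0.016 for Grik4 in males and -0.088 for Neto2 in females. Quantile normalization gave -0.12 for Neto2 in females, and leaving out cKO females 2 and 3 gave 0.048 for Grik4 and -0.083 for Neto2 in females. Grik4 in males was 0.00072 with a pseudocount of 2, 0.00067 with protein-coding receptor genes and 0.00039 with all GENCODE M21 exons.

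Over the 12 fits that leave out 1 library each, the male cKO change ranged from -0.015 to 0.18 for Grik1, -0.021 to 0.11 for Grik2, -0.052 to 0.27 for Grik3, -0.048 to 0.081 for Grik4, -0.073 to 0.13 for Neto1 and -0.12 to 0.51 for Neto2. The female change ranged from -0.25 to 0.15 for Grik3 and -0.27 to 0.31 for Neto2, and the control sex change from -0.61 to 0.038 for Neto2. The Neto1 sex changes kept their direction and call in these fits, from -0.69 to -0.52 in controls and from -0.59 to -0.39 in cKO mice.

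Over all genes, the sex comparison of controls called 1782 of 14989 in the main fit and 5013 of 14989 with array weights. The number of members passing between control males and females was 1, and 0 without subtraction (both scalings), with subtraction on summed FPKM and with voom. It was 3 with array weights and 2 without cKO females 2 and 3, the added gene being Grik4 (limma adjusted p = 0.0167) and with array weights Grik2 as well, and 1 to 2 when 1 library was left out, with 2 without cKO female 1 or cKO female 2. Between cKO males and females it was 1, and 5 without subtraction with median-of-ratios scaling, 2 without further scaling, 2 with voom, 2 with the most abundant transcript, and 0 with subtraction on summed FPKM, without cKO females 2 and 3 and with all GENCODE M21 exons, and 1 to 2 when 1 library was left out, with 2 without cKO female 2. Over all genes, the main fit called 5679 of 14989 between cKO males and females. Without subtraction it was 26893 of 40211 with median-of-ratios scaling and 31670 of 43399 without further scaling. It was 25040 of 40211 with voom and 4235 of 13898 with the most abundant transcript. The sex comparison of cKO mice, all GENCODE M21 exons and protein-coding receptor genes were chosen after seeing the data. The relation of retained-intron shares to background was not among the tests set out beforehand.

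The Atrx call in females was lost without subtraction (-1.47, median-of-ratios), with subtraction on summed FPKM (-0.51), with voom (-1.66), with the replicate block (-0.88), with females alone (-0.88) and without cKO females 2 and 3 (-0.99). It ranged from -0.94 to -0.83 when 1 library was left out, and 7 of those 12 fits lost the call, and in males it passed with array weights (-0.52). The replicate number of the titles was fitted as a block, and 0 members passed in either sex, in the mean or in the difference. The deviations of same-numbered libraries from their group means correlated with r of 0.15, -0.30 and 0.37 in females and 0.04, -0.10 and 0.19 in males. Deviations within groups of 3 balance around 0, so these values cannot show whether the numbers mark the pairs. As no label gives the pairs, the numbers were not taken as such in the main fit.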
